A study of Mus musculus with 12 samples.

Results

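The α-like globin genes of the mouse were examined here as targets of chromatin contacts. On chromosome 11 (mm9) they lie in a row in the order Hba-x, Hba-a1, Hbq1b, Hba-a2 and Hbq1a. All DpnII fragments with a midpoint in chr11:32170702-32204781 were taken, which gave 77 of the 120011 chromosome 11 fragments listed in any library. Of these, 8 fragments (2.012 kb) belonged to Hba-x, 5 (2.225 kb) to Hba-a1, 5 (2.067 kb) to Hbq1b, 5 (2.18 kb) to Hba-a2 and 2 (0.977 kb) to Hbq1a, and the other 52 lay between and around the genes. The contacts were measured by next-generation Capture-C, in which fragments ligated to a chosen viewpoint are enriched from a 3C library, sequenced and counted. The cells were CD71+ erythroid cells, purified on magnetic columns from day 7 embryoid bodies that had been grown from E14TG2a.IV mouse embryonic stem cells (strain 129/Ola). Unmodified cells (WT) were compared with the D3839 line, in which the CTCF sites HS-38 and HS-39.5 at the 5′ boundary of the α-globin cluster had been removed from both alleles. Each genotype had 3 libraries with the enhancers R1 and R2 as viewpoints and 3 libraries with the promoters of Il9r, Snrnp25, Rhbdf1, Mpg and Nprl3 as viewpoints. By the sample names in the labels, both captures were made from the same 3 cell samples of each genotype, so that equal replicate numbers in the 2 captures are 1 cell sample measured with both. The study states that the cells came from separate differentiation experiments. The D3839 data came from 2 clones made independently, so at least 2 of the 3 D3839 libraries of a capture share a clone, but no label ties a library to its clone. The names of D3839 replicates 2 and 3 share a stem that replicate 1 lacks, and what it stands for is not given. Erythroid identity and globin transcription cannot be read from contact counts and were not tested here.

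Each α-like globin gene codes for a chain of the α type, which pairs with β-like chains to form haemoglobin. Hba-x codes for ζ-globin, the embryonic chain of primitive erythroid cells. Hba-a1 and Hba-a2, here called the adult genes, code for the α chains of fetal and adult red cells. The study found their transcripts in primitive cells too, including those from embryoid bodies. Hbq1b and Hbq1a are the θ-like genes, whose product has no settled role. Transcription of the ζ and α genes depends on upstream enhancers, of which R1 and R2 lie within introns of Nprl3, and CTCF sites on either side limit how far these enhancers make contact.

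The sequences below show how alike the genes are at their starts, and which sites were lost in D3839. They are the 150 bases just before the transcription start of 4 of the genes, on the plus strand of GRCm38.p6 as given by RefSeq, in which all 5 genes were matched by symbol. Capitals mark the letters GATAA (in 25.4% of the 32851 mouse promoter windows of 300 bases), TATAA (24.9%), CCAAT (37.4%) and TGGNGGC (26.9%), searched on both strands and shown where they lie on the plus strand.
Hba-x, chr11:32276450-32276599: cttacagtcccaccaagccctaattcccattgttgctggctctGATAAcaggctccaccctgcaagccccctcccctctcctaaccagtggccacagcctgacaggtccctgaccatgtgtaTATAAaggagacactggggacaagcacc
Hba-a1, chr11:32283522-32283671: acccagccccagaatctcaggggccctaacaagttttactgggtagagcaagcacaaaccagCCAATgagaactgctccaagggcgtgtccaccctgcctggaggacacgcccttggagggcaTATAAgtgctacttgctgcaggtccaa
Hbq1b, chr11:32286814-32286963: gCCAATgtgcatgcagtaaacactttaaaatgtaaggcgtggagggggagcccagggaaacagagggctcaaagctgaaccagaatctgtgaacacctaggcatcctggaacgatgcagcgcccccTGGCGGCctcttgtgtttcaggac
Hbq1a, chr11:32299919-32300068: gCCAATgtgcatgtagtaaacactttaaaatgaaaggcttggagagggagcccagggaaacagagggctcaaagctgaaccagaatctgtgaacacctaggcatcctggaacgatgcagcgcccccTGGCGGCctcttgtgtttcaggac

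The Hba-a2 window is not printed because it repeats that of Hba-a1: once shifted by 3 bases, the windows were identical at 297 of 297 bases. The θ windows were identical at 286 of 300 bases, while Hba-x was identical to Hba-a1 at 85 of 290 bases under the best shift without gaps. None of the 5 windows held GATC, the DpnII site, which occurred in 48.0% of all promoter windows, so in that build each window lies within a single restriction fragment. The letters TGGNGGC were found once on the plus strand of each θ window, once on the minus strand of the Hba-x window and in neither α window. The same letters occur in the first of the sites replaced in D3839, where the study's methods give the sequences exchanged for a ScaI site (agtact).
HS-38: taccctcTGGTGGC
HS-39.5: ctggccactggggg
The second sequence, as printed in the methods, held no match to these letters on either strand. However, a guide RNA that the study lists for D3839 overlaps its end and continues with the base C. With that base the letters would match (TGGGGGC), so the lack of a match holds for the printed bases only.

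The libraries differed between genotypes in more than the mutation. Interactions on chromosome 11 (in cis) per library and viewpoint ranged from 4999 to 69758, those in the globin stretch from 386 to 12320 and those of a single globin gene from 15 to 1549, and 3 counts, the limit that a count of 0 allows, corresponded to between 0.00430% and 0.0600% of the cis interactions. In the promoter capture, D3839 libraries had between 2.61 and 3.77 times the cis interactions of WT libraries. The share of interactions in cis was higher in D3839 than in WT, with no overlap of libraries, for all 7 viewpoints, from 66.4% ± 1.81 against 76.5% ± 2.10 (SD, n = 3) with R1 to 51.0% ± 1.28 against 71.5% ± 3.04 with Nprl3. Shares are therefore given as percent of cis interactions, and the part of this difference in the results was not tested beyond the change of total given beside them. Over the 77 fragments, WT libraries of the R1 capture differed from each other well beyond counting error, with a chi-square per degree of freedom of 2.82 to 8.91, against 0.886 to 1.49 for the D3839 libraries of that capture, 0.589 to 1.16 for WT and 0.902 to 1.67 for D3839 in the promoter capture. Among D3839 pairs, replicates 2 and 3 had the lowest value with Il9r (1.08), Rhbdf1 (1.12), Mpg (0.971) and Nprl3 (1.05). They had the highest with R1 (1.11), R2 (1.49) and Snrnp25 (1.29). A comparison with counting error cannot tell whether these libraries share a clone, so they were kept as separate libraries and also counted as 1.

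The stretch as a whole took the largest share of contacts from the viewpoints nearest to it. From the Nprl3 promoter, 2.02 kb away, the WT libraries gave 18.9%, 20.5% and 22.3% of cis interactions. From R1 (23.8 kb away) they gave 15.7%, 19.6% and 20.8%, and from R2 (18.1 kb) 15.2%, 17.4% and 18.9%. These 3 sets of libraries overlapped, and all of them lay above the other viewpoints. From Rhbdf1 (47.2 kb) the WT mean was 9.26% ± 0.288, from Mpg (44.0 kb) 9.09% ± 0.217, from Snrnp25 (64.4 kb) 8.08% ± 0.177 and from Il9r (69.5 kb) 4.40% ± 0.430. Among them Rhbdf1 and Mpg overlapped, and every Snrnp25 library lay below these and above every Il9r library.

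In D3839 the mean share was higher with all 7 viewpoints, and with 4 of them every D3839 library exceeded every WT library. From Rhbdf1 the D3839 libraries gave 14.0%, 12.1% and 11.9%, against 8.97%, 9.27% and 9.55% in WT. This was the largest change in the stretch, a log2 difference of 0.45 with a standard error (SE) of 0.08. From Nprl3 the D3839 libraries gave 28.5%, 24.7% and 24.5% (log2 difference 0.33, SE 0.10), from Il9r 5.86%, 5.25% and 5.23% against 4.08%, 4.89% and 4.24% (0.31, SE 0.10), and from Mpg 12.5%, 9.86% and 10.1% against 8.97%, 9.34% and 8.96% (0.25, SE 0.11). With these 4 viewpoints the genotypes did not overlap. With R1, R2 and Snrnp25 they did, at 20.3% ± 2.11, 18.5% ± 2.01 and 8.78% ± 1.03 in D3839 and log2 differences of 0.12, 0.11 and 0.12. Single libraries decided these 3 values, which fell to 0.0075 from R1 without WT replicate 1, and to 0.017 from R2 and 0.025 from Snrnp25 without D3839 replicate 1. With 3 libraries against 3, the two-sided exact permutation test cannot go below p = 0.1, which the 4 separated viewpoints reached (0.175 after Benjamini-Hochberg adjustment over the 7 viewpoints). Among 59 to 61 tiles of the same width per viewpoint, which cover the 1 Mb on either side and include the stretch, every D3839 library was higher in 4.92% with R1, 3.33% with R2, 8.2% with Il9r, 10.0% with Snrnp25, 8.2% with Rhbdf1, 4.92% with Mpg and 3.39% with Nprl3. D3839 replicate 1, a single cell sample in both captures, was the highest of the 6 libraries with all 7 viewpoints. Without it the difference from Mpg fell to 0.14. The calls for Il9r and Mpg were lost when only interactions within 1 Mb of the stretch were used as the total, which left log2 differences of 0.12 and 0.11.

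**Figure D1:**
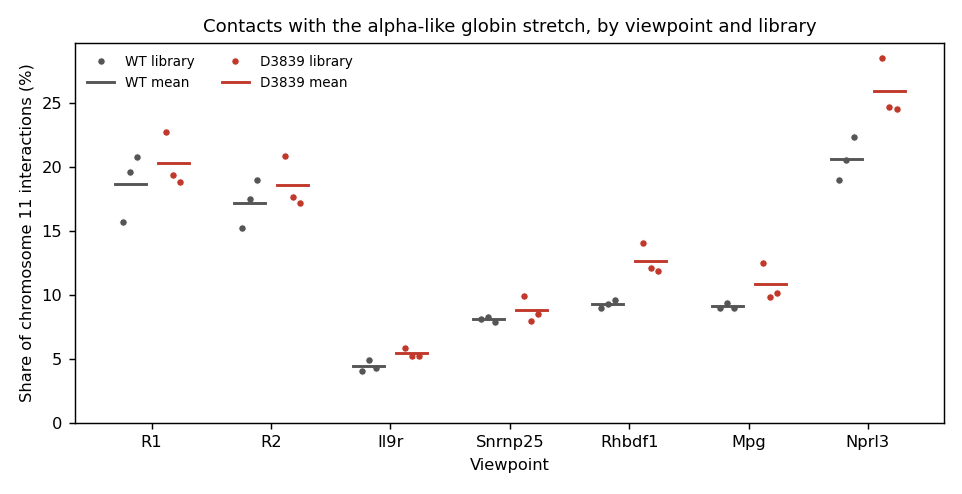
Share of chromosome 11 interactions (%) that fell in the α-like globin stretch, for each of the 7 viewpoints. Points are libraries (3 WT in grey, 3 D3839 in red) and bars their means; the Il9r, Rhbdf1, Mpg and Nprl3 viewpoints show D3839 points wholly above WT, at means of 5.45%, 12.7%, 10.8% and 25.9%.

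The stretch did not change evenly. From Rhbdf1, D3839 means were above WT in all of its parts. The share was 0.930% ± 0.235 in WT and 1.21% ± 0.0467 in D3839 in the 5.329 kb before Hba-x, where the libraries overlapped. It was 1.02% ± 0.0864 and 1.36% ± 0.0679 between Hba-x and Hba-a1, and 2.20% ± 0.150 and 3.17% ± 0.430 between Hbq1b and Hba-a2, where they did not overlap. From Nprl3 the separated parts lay before Hbq1b. The part before Hba-x went from 6.30% ± 0.438 to 9.54% ± 0.705 (log2 difference 0.60), the part between Hba-x and Hba-a1 from 2.49% ± 0.198 to 3.64% ± 0.402 (0.55) and the part between Hba-a1 and Hbq1b from 0.451% ± 0.0332 to 0.650% ± 0.0187 (0.53). The part between Hbq1b and Hba-a2 gave 2.57% ± 0.156 and 2.57% ± 0.250. From Il9r the separated parts lay further 3′, with 0.390% ± 0.0559 and 0.361% ± 0.0157 before Hba-x, where libraries overlapped, and 1.14% ± 0.0971 and 1.53% ± 0.0334 between Hbq1b and Hba-a2, where every D3839 library was higher. These parts were set side by side after their values were seen, and over all 77 comparisons of parts and viewpoints no adjusted exact p fell below 0.296. Downstream of Hbq1a, the last 4.312 kb of the stretch held per kb between 0.0581% (R2) and 0.134% (Mpg) of the cis interactions in WT, where the Hbq1a fragments held between 0.234% (Il9r) and 0.680% (R1). From Il9r this end of the stretch, at 0.0968% per kb in WT, was above the part before Hba-x (0.0732%). Its fragment chr11:32200470-32203107 had the highest mean share of those tested in WT (0.130%), while 3 fragments were above it in D3839 (0.153%). These fragment shares are not per kb, and this fragment is longer than the summed fragments of any of the 5 genes (at most 2.225 kb).

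**Figure D2:**
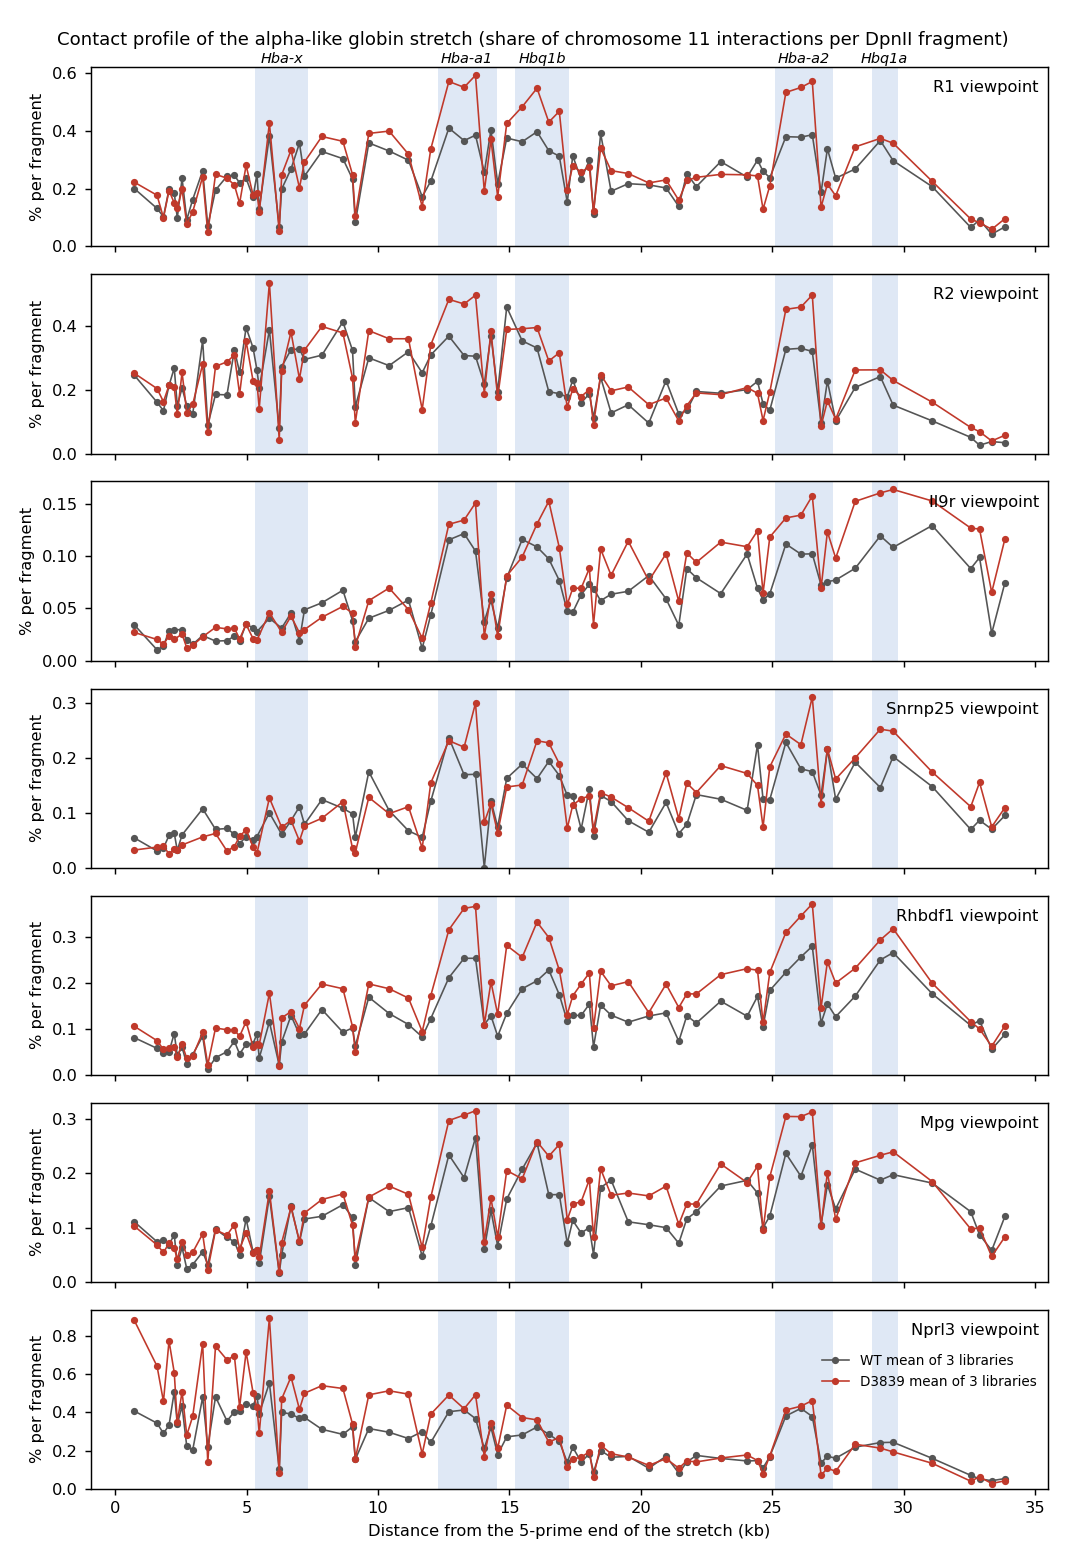
Mean share of chromosome 11 interactions (%) per DpnII fragment along the stretch, with distance from its 5′ end in kb, for WT (grey) and D3839 (red), 3 libraries each; shaded bands are the 5 genes and only fragments with at least 20 counts over 6 libraries are drawn. From Nprl3 the D3839 line stands above WT before and just after Hba-x, and from Rhbdf1 along most of the stretch.

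By gene, 13 of the 35 combinations of gene and viewpoint were separated with D3839 higher and 0 with D3839 lower. Hba-x, the ζ gene, accounted for 1 of them, Hba-a1 for 3, Hba-a2 for 4, Hbq1b for 3 and Hbq1a for 2. The adult genes gave near-equal counts in most of their fragments (below), so their calls may not be independent. Among 356 to 659 tiles of 2 kb per viewpoint, which have about the size of a gene, lie in the same window of 1 Mb on either side of the stretch (which they include) and hold 20 or more counts, the share that was higher in every D3839 library was 8.33% with R1, 9.19% with R2, 8.8% with Il9r, 8.45% with Snrnp25, 10.2% with Rhbdf1, 7.49% with Mpg and 6.18% with Nprl3. The 5 genes gave 1 such case with R1, 2 with R2, 2 with Il9r, 2 with Snrnp25, 4 with Rhbdf1, 2 with Mpg and 0 with Nprl3. The median log2 difference over the 35 combinations was 0.29. Over the 2 kb tiles the median was -0.10 with R1, -0.06 with R2, -0.18 with Il9r and -0.21 with Snrnp25. With Rhbdf1, Mpg and Nprl3 it was -0.41, -0.52 and -0.49. None of the 35 combinations passed the test once adjusted over the 35: the smallest adjusted exact p was 0.269. The count of 13 moved to 30 with all interactions as the total and to 9 (with 2 lower, Hba-a2 and Hbq1a from Nprl3) with interactions within 1 Mb as the total, and to 21 without WT replicate 3.

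Contacts of the ζ gene Hba-x overlapped between genotypes with 6 of the 7 viewpoints. From R1 its share was 1.71%, 1.90% and 2.10% in WT and 1.96%, 1.90% and 1.73% in D3839, and from R2 it was 1.82%, 2.26% and 2.38% in WT and 2.48%, 2.02% and 1.92% in D3839. The log2 differences were -0.03 (SE 0.10) and -0.01 (SE 0.16), and with all interactions as the total they became 0.18 with each. From Nprl3, its nearest viewpoint, Hba-x took 2.60%, 2.95% and 3.67% in WT and 3.95%, 3.51% and 3.54% in D3839 (0.26, SE 0.16), which also overlapped, but every D3839 library was above WT with all interactions as the total (0.74), with widened windows (0.37) and without WT replicate 3 (0.40). The exception was Rhbdf1, from which the WT libraries gave 0.670%, 0.629% and 0.618% and the D3839 libraries 0.893%, 0.817% and 0.822%. Every D3839 library lay above WT there, a log2 difference of 0.40 (SE 0.06). From Il9r, Snrnp25 and Mpg the log2 differences were -0.10, -0.23 and 0.12, and the libraries overlapped. From Mpg they were separated, at 0.53, with all interactions as the total, and at 0.24 without D3839 replicate 3.

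The adult genes were separated, with D3839 higher, with more viewpoints than the ζ gene, a difference that was not tested. From Rhbdf1, Hba-a1 took 0.896%, 0.920% and 1.06% of cis interactions in WT and 1.40%, 1.33% and 1.34% in D3839 (log2 difference 0.50, SE 0.08), and Hba-a2 took 0.922%, 0.982% and 1.18% against 1.58%, 1.28% and 1.42% (0.47, SE 0.14). From R2, Hba-a1 took 1.38%, 1.55% and 1.78% in WT and 2.36%, 1.82% and 1.88% in D3839 (0.36, SE 0.16), and Hba-a2 1.19%, 1.29% and 1.42% against 1.91%, 1.57% and 1.50% (0.35, SE 0.13). In these 4 cases all D3839 libraries were above all WT libraries, but libraries overlapped for Hba-a1 from R2 with windows widened by 1 kb (0.14) or without its top fragment (0.27), for Hba-a2 from R2 without its top fragment (0.25) and for Hba-a2 from Rhbdf1 with interactions within 1 Mb as the total (0.30). Likewise separated were Hba-a1 from Snrnp25 (0.700% ± 0.0383 and 0.952% ± 0.132), Hba-a2 from Il9r (0.464% ± 0.0427 and 0.627% ± 0.0454) and Hba-a2 from Mpg (0.969% ± 0.0653 and 1.23% ± 0.204), the last of which overlapped with the 1 Mb total (0.20). Without D3839 replicate 1 the log2 difference fell from 0.36 to 0.24 for Hba-a1 from R2 and from 0.34 to 0.21 for Hba-a2 from Mpg. Libraries overlapped for Hba-a1 from Mpg (0.38) and Il9r (0.20) and for Hba-a2 from Snrnp25 (0.25). With all interactions as the total these were separated, at 0.78, 0.64 and 0.48. From R1 the adult genes overlapped between genotypes, at 1.82% ± 0.413 and 2.28% ± 0.343 for Hba-a1 and 1.67% ± 0.373 and 2.01% ± 0.276 for Hba-a2, but every D3839 library was higher with all interactions as the total (0.53 and 0.47) and without WT replicate 3 (0.46 and 0.41). From Nprl3 the log2 difference was 0.16 for Hba-a1 and 0.00 for Hba-a2, which had 1.49% in both genotypes. The total decided these values: with all interactions they were 0.64 and 0.48, and with the 1 Mb total -0.02 and -0.18, where every D3839 library was below WT for Hba-a2.

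Of the θ-like genes, Hbq1b separated the genotypes from R1, with 1.21%, 1.70% and 1.77% in WT and 2.36%, 2.04% and 1.98% in D3839 (log2 difference 0.45, SE 0.18), from Rhbdf1, with 0.913% ± 0.184 and 1.25% ± 0.0982, and from Mpg, with 0.857% ± 0.0786 and 1.05% ± 0.201. From Mpg the gap was narrow, since the highest WT library had 0.926% and the lowest D3839 library 0.927%. Libraries overlapped for Hbq1b from R1 with widened windows (0.24), from Rhbdf1 with the 1 Mb total (0.28) or without its top fragment (0.37), and from Mpg with the 1 Mb total (0.15). Without WT replicate 1 the value from R1 fell to 0.30, and without D3839 replicate 1 that from Mpg fell from 0.29 to 0.12. Hbq1a, the last gene of the row, separated them from Il9r, with 0.250%, 0.215% and 0.220% in WT and 0.377%, 0.316% and 0.281% in D3839 (0.51, SE 0.14), and from Snrnp25, with 0.420%, 0.300% and 0.328% against 0.581%, 0.474% and 0.452% (0.52, SE 0.19). These were the largest log2 differences of the 35, over only 2 fragments, and libraries overlapped from Il9r with the 1 Mb total (0.32) and from Snrnp25 with any overlap of fragment and window (0.35) or widened windows (0.35). From Nprl3, Hbq1a was at 0.485% ± 0.0457 in WT and 0.406% ± 0.0727 in D3839 (-0.26), with overlap, but every D3839 library was below WT with the 1 Mb total (-0.45) and without D3839 replicate 1 (-0.39).

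Per kb of fragments, the order of the 5 genes among each other depended on the viewpoint. Parts between genes could reach such levels. In WT the part between Hba-a1 and Hbq1b held 0.948% per kb from R2 and 0.860% from R1, while that between Hbq1b and Hba-a2 held 0.369% and 0.524%. From Nprl3 the ζ gene came first in both genotypes, at 1.53% ± 0.271 per kb in WT and 1.82% ± 0.122 in D3839, above every library of Hba-a1 (0.772% ± 0.0616 and 0.862% ± 0.0828). From R2 it was also first in WT, at 1.07% ± 0.148 against 0.705% ± 0.0920 for Hba-a1, but overlapped Hba-a1 in D3839. From R1 the 5 genes overlapped with their neighbours in WT, between 0.680% ± 0.0287 for Hbq1a and 0.945% ± 0.0980 for Hba-x. From the 4 promoters 5′ of the enhancers, Hba-x came last: from Il9r at 0.110% ± 0.0205 per kb in WT, where the other genes lay between 0.197% ± 0.0467 (Hba-a1) and 0.234% ± 0.0197 (Hbq1a). It lay below all libraries of the next gene from Il9r and Rhbdf1 in both genotypes, and from Snrnp25 and Mpg in D3839. From its lowest viewpoint (Il9r) to its highest (Nprl3), the mean share of Hba-x per kb differed 13.8-fold in WT and 17.7-fold in D3839. For the other genes, which had their lowest mean from Il9r and their highest from R1, it differed between 2.91-fold (Hbq1a) and 4.16-fold (Hba-a1) in WT. Hba-x is cut into more and shorter fragments than the other genes, and per fragment the order changed: it came last from R1 in both genotypes (0.238% ± 0.0247 in WT), was no longer first from R2 (0.269% ± 0.0371 in WT, behind Hba-a1 at 0.314% ± 0.0409, with overlap), and from Nprl3 overlapped Hba-a1 in WT (0.384% ± 0.0680 and 0.344% ± 0.0274) while staying above it in D3839.

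**Figure D3:**
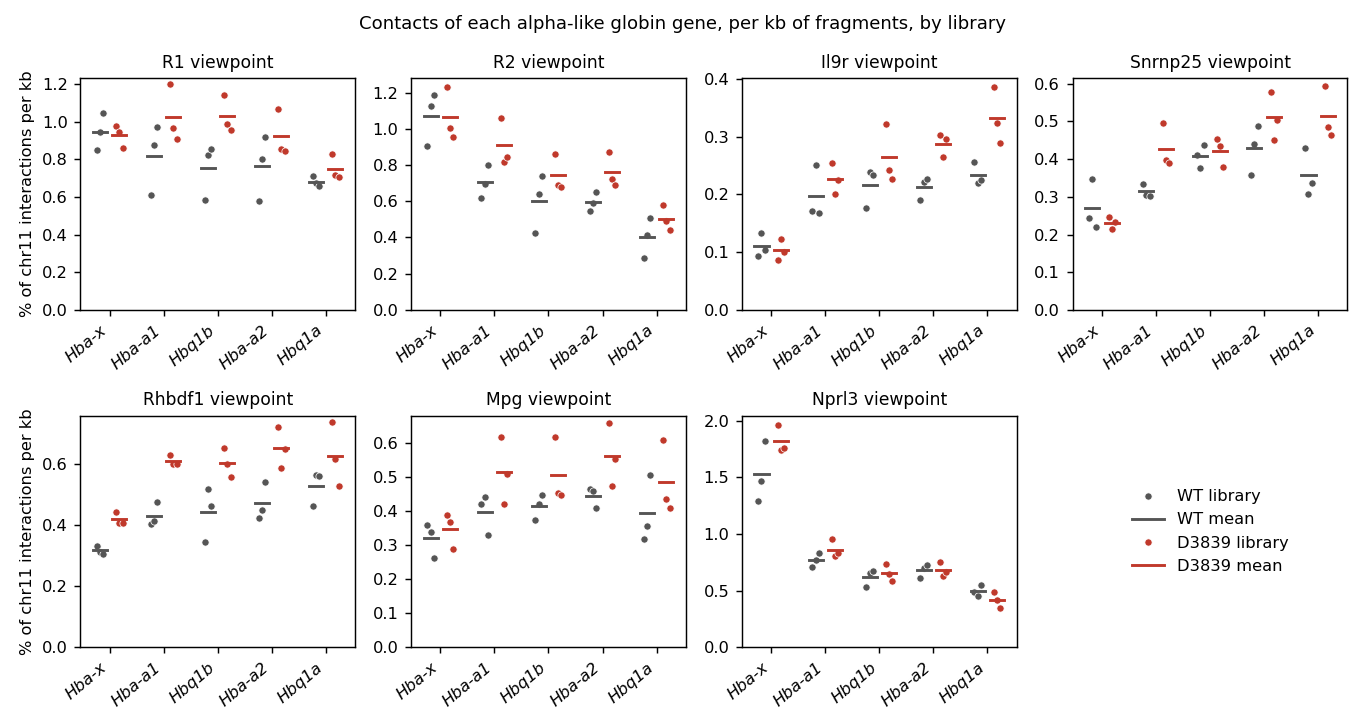
Share of chromosome 11 interactions per kb of fragments (%) for each of the 5 genes, 1 panel per viewpoint with its own scale. Points are libraries (WT grey, D3839 red) and bars means; Hba-x is highest from Nprl3 (1.53% and 1.82% per kb) and lowest from Il9r (0.110% and 0.103% per kb).

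The balance of the embryonic against the adult genes was measured as the log2 ratio of Hba-x counts to the summed counts of Hba-a1 and Hba-a2, which does not depend on how counts are divided between the adult copies or on the total used. Equal contact per kb would give -1.13, since the Hba-x fragments span 2.012 kb and the adult fragments 4.405 kb. Per fragment the reference would be higher, since Hba-x has 8 fragments and each adult gene 5. Being above or below -1.13 therefore holds per kb only. From Nprl3 the 6 libraries averaged 0.02 and from R2 -0.60, all of them above that value. From R1 the mean was -0.86 in WT, where all 3 libraries lay above it, and -1.19 ± 0.138 in D3839, whose libraries lay on both sides. From Mpg the 6 libraries averaged -1.64, from Rhbdf1 -1.67, from Snrnp25 -1.87 and from Il9r -2.23, all below it. Compared within libraries, the ratio from Nprl3 exceeded that from each of the other 4 promoters in 6 of 6 libraries, by 1.66 (SD 0.321) over Mpg to 2.25 (SD 0.417) over Il9r, and the ratio from R1 was lower than that from R2 in 6 of 6, by a mean log2 difference of -0.43 (SD 0.193). Each had an exact sign-flip permutation p of 0.03125, the smallest that 6 libraries can give, and an adjusted p of 0.0491 over 11 pairs of viewpoints. Il9r was also below Rhbdf1 and Mpg in 6 of 6 libraries, at the same p, and Rhbdf1 and Mpg differed by -0.03 (SD 0.202, range -0.26 to 0.27, exact permutation p = 0.75).

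In D3839 the balance moved towards the adult genes with R1, R2 and Snrnp25. From R2 the ratio was -0.49, -0.32 and -0.43 in WT and -0.78, -0.74 and -0.82 in D3839, a difference of -0.37 (SE 0.05). From R1 it was -0.62, -0.96 and -0.98 in WT and -1.35, -1.08 and -1.16 in D3839 (-0.34, SE 0.14), and from Snrnp25 -1.62, -1.22 and -1.95 against -2.24, -2.11 and -2.06 (-0.54, SE 0.22). Every D3839 library was below every WT library in these 3 cases, each at the smallest exact permutation p of 0.1 (0.233 adjusted over the 7 viewpoints). Libraries overlapped from Il9r (-0.44, SE 0.23), Mpg (-0.24, SE 0.19), Rhbdf1 (-0.10, SE 0.12) and Nprl3, where the difference was 0.18 (SE 0.08) in the other direction. From Snrnp25 the libraries overlapped when gene windows were widened by 1 kb (-0.39) and when the fragment with most counts was left out of each gene, where the size stayed at -0.54. The difference was -0.22 from R1 without WT replicate 1 and -0.35 from Snrnp25 without WT replicate 2. Whether the difference between genotypes itself differed between viewpoints was not tested.

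**Figure D4:**
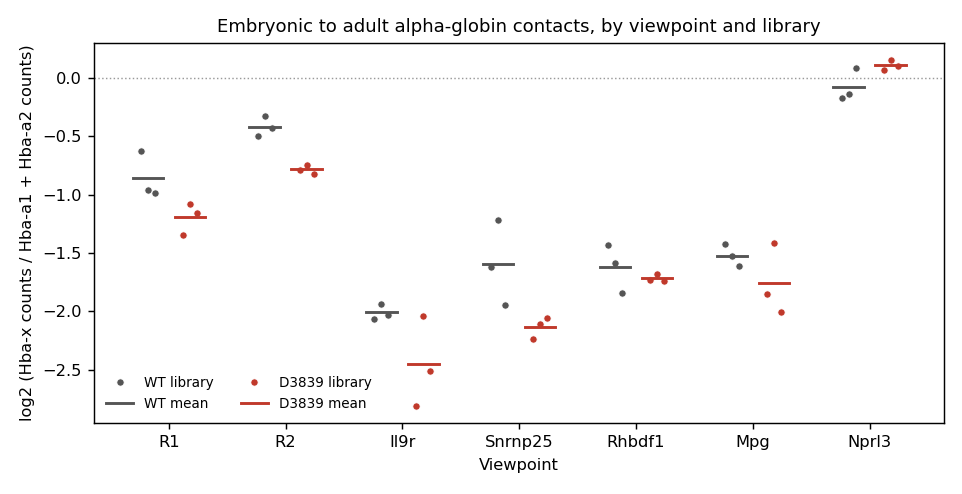
The log2 ratio of Hba-x counts to summed Hba-a1 and Hba-a2 counts for each viewpoint, with libraries as points (WT grey, D3839 red) and means as bars; the dotted line marks equal counts. Nprl3 lies near the line and Il9r lowest, and from R1, R2 and Snrnp25 the D3839 points lie wholly below WT.

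The 2 adult genes differed in counts mainly at their 3′ ends. In the first 3 fragments of each gene, counted from the 5′ side, Hba-a1 had 51.6% (4370 counts against 4093), 49.8% (4105 against 4136) and 50.04% (4395 against 4388) of the summed counts of the pair. The 95% Wilson interval of its share held 50% in 41, 42 and 42 of the 42 combinations of library and viewpoint, so that these fragments gave near-equal counts whatever the viewpoint. Only the first pair, whose members differ in length, departed from an even split when all counts were pooled (95% Wilson interval 50.6% to 52.7%), and from Nprl3 the 3 D3839 libraries gave Hba-a1 between 53.6% and 54.9% of it. Whether near-equal counts reflect equal contact or reads that fit both copies was not tested. The last 2 fragments behaved otherwise: at the 76 bp pair (chr11:32184706-32184781 in Hba-a1) the Hba-a1 share ranged from 0% to 83.3%, and at the last pair (432 bp in Hba-a1 and 405 bp in Hba-a2) from 10.0% to 80.5%, with 50% inside the interval in 25 and 21 of 42. At the last pair the D3839 libraries gave Hba-a1 76.5% ± 6.17 from Nprl3, 69.7% ± 1.69 from R2 and 62.9% ± 4.13 from R1, but 45.1% ± 2.72 from Rhbdf1, 42.9% ± 3.24 from Mpg, 34.4% ± 6.67 from Snrnp25 and 33.4% ± 7.86 from Il9r. Hba-a1, the copy nearer to all viewpoints, held the larger share from the 3 nearest viewpoints and not from the others.

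Over all 5 fragments, the log2 ratio of Hba-a1 to Hba-a2 was higher in every D3839 library only from Nprl3, at 0.37 ± 0.0217 against 0.21 ± 0.0457 in WT (exact permutation p = 0.1, 0.7 adjusted over the 7 viewpoints). On the last 2 fragments alone, chosen because their counts spread with the viewpoint and so given with no test, it was 1.53 ± 0.241 against 0.80 ± 0.153 from Nprl3 and 0.66 ± 0.146 against 0.33 ± 0.116 from R1, with no overlap of libraries, and the libraries overlapped from the other viewpoints. The 332 bp fragments that Hbq1b and Hbq1a share in length were split less evenly than the first 3 adult pairs, and more evenly than the last 2, with 52.9% of the counts in Hbq1b and 50% inside the interval in 37 of 42.

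**Figure D5:**
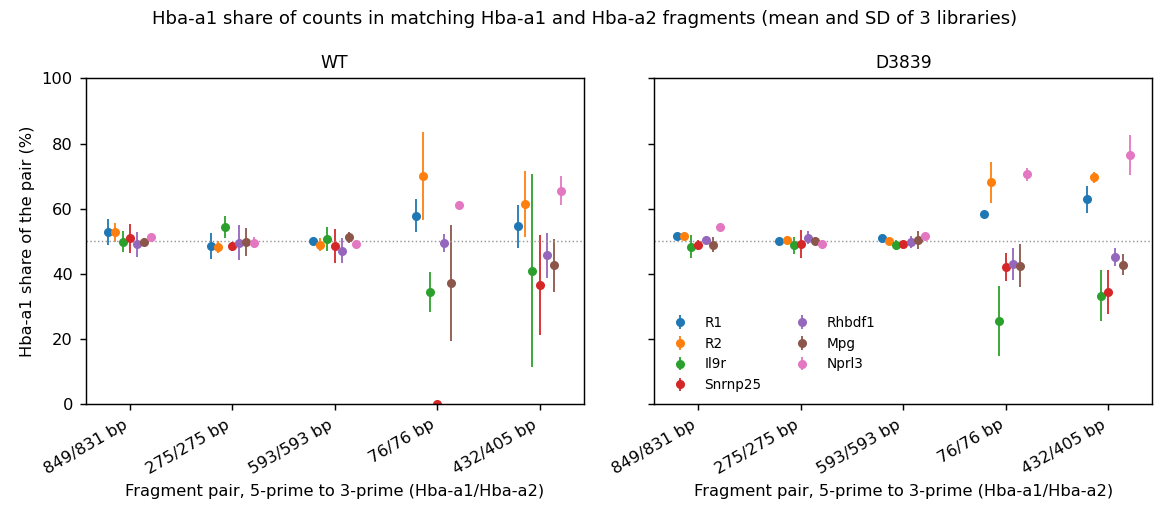
Share of counts in the Hba-a1 copy (%) for each of the 5 pairs of matching Hba-a1 and Hba-a2 fragments, from 5′ to 3′, by viewpoint in WT and D3839 (mean and SD of 3 libraries). The first 3 pairs sit near 50% from every viewpoint, and the last 2 spread, from 33.4% (Il9r) to 76.5% (Nprl3) at the last pair in D3839.

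The θ-like genes were compared by the log2 ratio of Hbq1b to Hbq1a counts, for which equal contact per kb would give 1.08. It was higher in every D3839 library from R1 (1.21 ± 0.363 in WT and 1.54 ± 0.0147 in D3839) and Nprl3 (1.38 ± 0.205 and 1.75 ± 0.0960), and lower in every D3839 library from Snrnp25 (1.27 ± 0.227 and 0.80 ± 0.117), each with an exact permutation p of 0.1 (0.233 adjusted over the 7 viewpoints). With the other 4 viewpoints the libraries overlapped. The difference from R1 fell from 0.33 to 0.12 without WT replicate 1, and its libraries overlapped with any overlap of fragment and window (0.18), with widened windows (0.15) and without the top fragment of each gene (0.20). Likewise those from Nprl3 overlapped with any overlap of fragment and window (0.20), and those from Snrnp25 without the top fragments (-0.34).

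Set against its neighbours, the globin stretch gained on different sides from different viewpoints. Against the enhancer stretch 5′ of it (chr11:32139865-32170701, which holds R1, R2 and the Nprl3 promoter), the log2 ratio of counts was higher in every D3839 library from Il9r (0.91 ± 0.149 in WT and 1.39 ± 0.120 in D3839) and Snrnp25 (0.70 ± 0.101 and 1.07 ± 0.0857). It was lower in every D3839 library from Mpg (0.70 ± 0.0320 and 0.41 ± 0.149) and Nprl3 (-0.03 ± 0.117 and -0.26 ± 0.0248), although the globin share itself was higher from both. From R1, R2 and Rhbdf1 the libraries overlapped. Against the equally wide neighbour 3′ of it (chr11:32204782-32238686), the ratio was higher in every D3839 library from Nprl3 (2.76, 2.86 and 3.35 in WT and 4.17, 3.91 and 3.90 in D3839), a difference of 1.00 (SE 0.20), from Rhbdf1 (0.69 ± 0.0214 and 1.48 ± 0.201) and from Mpg (0.76 ± 0.0189 and 1.52 ± 0.242). The other 4 viewpoints overlapped. All separated ratios had an exact permutation p of 0.1, with adjusted p of 0.175 for the enhancer side and 0.233 for the 3′ side.

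Single fragments were tested with edgeR's quasi-likelihood test over all chromosome 11 fragments that held 20 or more counts in its 6 libraries together, separately for each viewpoint, at an adjusted p under 0.05. From Nprl3, 19 of the 77 fragments of the stretch were gained in D3839 and 4 were lost, beside 9.55% gained and 4.55% lost among all 440 fragments tested. Of the gains 18 were among the 34 fragments before Hba-a1, and 1 was among the other 43. The gains included chr11:32172631-32172860, with 0.280%, 0.410% and 0.308% in WT and 0.826%, 0.727% and 0.769% in D3839 (log2 fold change 1.25, SE 0.18, adjusted p = 2.04e-07), and chr11:32170702-32172142, the first fragment of the stretch (1.09, SE 0.17, adjusted p = 1.23e-06). Both lie before Hba-x, and every D3839 library was above WT. Within Hba-x, chr11:32176203-32176928 was also gained, at 0.554% ± 0.0582 and 0.895% ± 0.0370 (0.71, SE 0.17, adjusted p = 0.00137), and held the highest share of all 77 fragments from this viewpoint. The losses were short fragments: chr11:32197523-32197598 within Hba-a2 (0.135% ± 0.0106 and 0.0709% ± 0.0112, log2 fold change -0.94, adjusted p = 0.0167), chr11:32182317-32182444, chr11:32198004-32198228 and chr11:32174208-32174233 (adjusted p between 0.0177 and 0.0456). With all interactions as the library size 45 were gained and 0 lost, and without a count filter 6 were gained and 0 lost. Without WT replicate 2 the counts were 12 gained and 0 lost, and without WT replicate 1, WT replicate 3, D3839 replicate 2 or D3839 replicate 3 the losses numbered 1. DESeq2 called 19 gained and 1 lost of the 73 to which it gave an adjusted p, beside 20.5% and 0.568% among all 176 that had one.

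From Rhbdf1, 4 of 77 fragments were gained and 0 lost, beside 8.17% gained and 1.55% lost among all 453. The smallest p belonged to chr11:32185293-32185902, between Hba-a1 and Hbq1b, with 17, 12 and 4 counts in WT and 62, 78 and 72 in D3839 (log2 fold change 1.00, SE 0.26, adjusted p = 0.00670). It and chr11:32179084-32179641, between Hba-x and Hba-a1 (0.97, adjusted p = 0.0264), were gained from Nprl3 as well. Within Hbq1b, chr11:32186469-32187032 went from 0.205% ± 0.0216 to 0.333% ± 0.0248 (0.71, adjusted p = 0.0345). DESeq2 called 0 in the stretch, beside 3.83% gained and 1.8% lost among all 444 with an adjusted p, and without WT replicate 1, 2 or 3 edgeR called 1. With edgeR, 44 were gained with all interactions as the library size, 9 with a minimum of 60 counts, 1 with TMM factors and 0 without a count filter. The median log2 fold change over the stretch was 0.45 beside 0.10 over all fragments.

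From Snrnp25, 2 of the 72 fragments tested were gained and 0 lost, beside 6.25% gained and 0% lost among all 416. One of the 2 cannot be counted as support, since it reached the minimum of 20 counts only through its D3839 counts. At this fragment, chr11:32184706-32184781, the 76 bp fragment of Hba-a1, the 3 WT libraries had 0 counts and the D3839 libraries had 10, 14 and 16, at 0.0829% ± 0.00656 of cis interactions. Against a limit of 3 counts over the WT group (0.0162% of 18519 interactions) this was at least 5.11-fold higher, given as a description. The matching fragment of Hba-a2 had 23 counts in the same WT libraries, and from the other 6 viewpoints the Hba-a1 fragment had between 16 and 335 counts in WT. The second gain, chr11:32196930-32197522, lies in Hba-a2 in the part shared with Hba-a1, with 0.175% ± 0.0193 and 0.312% ± 0.0344 (0.79, SE 0.26, adjusted p = 0.0425). DESeq2 gave an adjusted p for 27 fragments and called 0, beside 16.4% gained among all 110 that had one, and edgeR called 1 without any single WT library, D3839 replicate 1 or D3839 replicate 2. From Mpg, 1 of 77 was gained and 0 lost, beside 8.37% and 1.36% among all 514: chr11:32188610-32188875, between Hbq1b and Hba-a2, had 0.0935%, 0.111% and 0.0958% in WT and 0.169%, 0.223% and 0.174% in D3839 (0.94, adjusted p = 0.0273). DESeq2 called 0 here, beside 9.66% gained and 1.21% lost among all 414 with an adjusted p, and edgeR called 0 without WT replicate 1, WT replicate 2 or D3839 replicate 2 and 2 without WT replicate 3 or D3839 replicate 1. All interactions as the library size gave 24 gains from Mpg and 7 from Snrnp25, TMM factors gave 4 from Mpg, and without a count filter there were 0 from Mpg and 1 from Snrnp25.

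From Il9r, 0 of 73 fragments tested were called in either direction, beside 3.26% gained and 0.0814% lost among all 1228, although 14 were higher and 0 lower at an unadjusted p under 0.05, beside 9.53% higher and 3.83% lower among all. With all interactions as the library size 23 were gained, with a minimum of 60 counts 3 and with TMM factors 2. The smallest p was at chr11:32194990-32195292, between Hbq1b and Hba-a2 (0.0695% ± 0.0149 and 0.124% ± 0.00619, adjusted p = 0.0601). DESeq2 gave an adjusted p for 28 fragments and called 0, beside 19.9% gained among all 181 that had one. From R1 and R2 no fragment was called, in the stretch or elsewhere (0% gained and 0% lost with each), with 6 higher and 6 lower from R1 and 9 higher and 8 lower from R2 at an unadjusted p under 0.05. Among all fragments tested, 5.35% were higher and 16.8% lower from R1 at that threshold, and 3.68% and 17.1% from R2. In counts simulated with a common spread per viewpoint, 200 of the fragments tested were changed 2-fold. Of these, 0% were found with R1 and R2, 21.5% with Il9r, 41% with Mpg, 44% with Snrnp25 and 50% with Nprl3 and Rhbdf1. The 200 were drawn from all fragments tested, 416 with Snrnp25 to 1228 with Il9r, so these percentages are not comparable between viewpoints. How often such a change would be found in the stretch itself was not tested. DESeq2 called 8 of 77 gained and 0 lost from R1, beside 4.16% and 5.23% among all 841, and 9 gained and 1 lost from R2, beside 2.48% and 5.83% among the 806 with an adjusted p. The smallest p from R2 was at chr11:32184113-32184705 in Hba-a1, at 0.276%, 0.325% and 0.315% in WT and 0.568%, 0.453% and 0.468% in D3839 (log2 fold change 0.69, SE 0.15, edgeR adjusted p = 0.186), and from R1 at chr11:32177661-32177757 in Hba-x, at 0.357% ± 0.115 and 0.203% ± 0.0217 (-0.79, SE 0.23, edgeR adjusted p = 0.114).

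Across the 42 combinations of library and viewpoint, which share libraries and depth, the log2 share of Hba-a1 was most like that of Hba-a2 (Pearson's r 0.959) and Hbq1b (0.948), and that of Hba-a2 most like Hbq1b (0.959). Hba-x was most like windows on its 5′ side, the 2 kb windows that start at 32168 kb (0.973) and 32164 kb (0.964), and less like Hba-a1 (0.921). Hbq1a had the weakest match, to Hbq1b (0.809) and Hba-a2 (0.784). These values are a description over dependent points and carry no test. The adult genes gave near-equal counts in most of their fragments, and whether reads that fit both copies add to their likeness was not tested.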

How the data were processed

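NG Capture-C was performed by the authors on CD71+ erythroid cells from day 7 embryoid bodies. Per the labels, reads were trimmed with Trim Galore and aligned with Bowtie to mm9 (versions, and the tool that called interactions, are not given in the sources used here). The deposited values are raw interaction counts, given for each DpnII fragment and viewpoint in 12 libraries, and fragments with 0 counts are not listed. Fragments next to the viewpoints are absent from the lists, and viewpoint positions were read from these gaps, assigned by the order of the genes along the chromosome.

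Counts were divided by the cis interactions of the library and viewpoint. A gene was given the fragments with midpoints in its window. The 5 genes, the lists and the named items were chosen with earlier results of these data known. Named items were all 5 genes with every viewpoint, up to 3 called fragments per direction and viewpoint (otherwise the one with the smallest p) and the fragment with the highest mean share. Genotypes were compared with two-sided exact permutation tests over libraries, viewpoints with sign-flip permutation tests over the 6 libraries of a capture, and fragments with edgeR 4.0.16 (quasi-likelihood test, Benjamini-Hochberg adjustment, R 4.3.3), tested on simulated data; DESeq2 1.42.0, other totals, other gene windows, left-out replicates and a replicate block were alternatives. Log2 ratios used a pseudocount of 0.5. SE values came from the library SDs for shares and ratios, and from the F statistic for edgeR. Wilson intervals (95%) and the floor of 3 counts cover counting error only. P-values measure the spread between these libraries. Promoter sequences came from RefSeq (GRCm38.p6), and none of its positions were transferred to mm9.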

Additional observations from a re-analysis of the deposited data

How the results depend on the processing

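All values here are log2 differences (D3839 over WT) or counts of fragments in the globin stretch. For the 4 separated stretch shares, the ranges over leaving out each library were 0.25 to 0.39 for Il9r, 0.37 to 0.49 for Rhbdf1, 0.14 to 0.31 for Mpg and 0.25 to 0.39 for Nprl3. The total decided more. With all interactions as the total, the stretch share also separated the genotypes from R1 (0.32), R2 (0.30) and Snrnp25 (0.35), and gene shares changed sign for Hba-x from R1 (0.18), R2 (0.18) and Il9r (0.35) and, from Nprl3, for Hba-a2 (0.48) and Hbq1a (0.23). With interactions within 1 Mb, the stretch calls of Il9r (0.12) and Mpg (0.11) were lost, and signs changed for Hba-x from R2 (0.0034) and Mpg (-0.019), Hbq1b from Snrnp25 (-0.051) and, from Nprl3, Hba-a1 (-0.023) and Hbq1b (-0.093); Hba-a2 (-0.18) and Hbq1a (-0.45) from Nprl3 became separated with D3839 lower. With interactions over 10 kb from the viewpoint, Snrnp25 was separated (0.25), and signs changed for Hba-x from R1 (0.011), R2 (0.022) and Il9r (0.044) and Hba-a2 from Nprl3 (0.24); Hba-x from Nprl3 had no value, since all its fragments lie within that distance. With D3839 replicates 2 and 3 counted as 1 library, signs changed for Hba-x from R2 (0.046) and Hba-a2 from Nprl3 (0.036), and libraries no longer overlapped for the Hba-a1 to Hba-a2 ratio (0.060) and the enhancer-side ratio (0.18) from R1, the enhancer-side ratio from R2 (0.13), and the ζ to adult ratio from Il9r (-0.53) and Mpg (-0.26). Without the top fragment of each gene, Hbq1b from Snrnp25 was -0.093 and the ζ to adult ratio from Snrnp25 overlapped (-0.54). Windows widened by 1 kb gave an Hba-a1 to Hba-a2 ratio of 0.21 from R1 and -0.33 from Il9r, both separated, and -0.10 from R2, a change of sign, and a ζ to adult ratio of -0.51 from Il9r and 0.28 from Nprl3, both separated, and -0.39 from Snrnp25, which overlapped. The ζ to adult ratio from Il9r was also separated with any overlap of fragment and window (-0.48), and that from Nprl3 against the other 4 genes (0.21). On the last 2 fragments, chosen after seeing the data, the Hba-a1 to Hba-a2 ratio was 0.33 from R1 and -0.16 from Rhbdf1. The Hbq1b to Hbq1a ratio, whose alternatives were all chosen after seeing the data, overlapped with any overlap of fragment and window from R1 (0.18) and Nprl3 (0.20), with widened windows from R1 (0.15) and without the top fragments from R1 (0.20) and Snrnp25 (-0.34). Under these 3 settings it was -0.15, -0.28 and -0.29 from R2, each separated, and 0.11, 0.28 and 0.14 from Mpg, a change of sign. With a longer 3′ neighbour, the ratio to it was 0.085 from Il9r and 0.18 from Snrnp25.

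Same-numbered libraries did not deviate together, so the numbers were not taken as pairs. With a replicate block, all 3 pairs moved one way for the Hba-a1 to Hba-a2 ratio from R1 (0.055), the enhancer-side ratio from R1 (0.17) and R2 (0.13), the ζ to adult ratio from Il9r (-0.44) and Nprl3 (0.18), the Hbq1b to Hbq1a ratio from Rhbdf1 (0.24), and the shares of Hba-x from Il9r (-0.095) and Mpg (0.12), Hbq1a from R1 (0.14) and Hba-a2 from Snrnp25 (0.26), and edgeR with the block called 1 gain each from Snrnp25 and Rhbdf1.

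In the fragment test, DESeq2 gave 8 gains from R1, 9 gains and 1 loss from R2, 0 gains from Snrnp25, Rhbdf1 and Mpg, and 1 loss from Nprl3. TMM factors gave 1 gain from R2, 2 from Il9r, 1 from Rhbdf1 and 4 from Mpg. All interactions as the library size gave 1 gain from R2, 23 from Il9r, 7 from Snrnp25, 44 from Rhbdf1, 24 from Mpg and 45 from Nprl3, with 0 losses from Nprl3. Without the filter on low counts there was 1 gain from Snrnp25, 0 from Rhbdf1, 0 from Mpg and 6 from Nprl3, with 0 losses from Nprl3. With at least 60 counts there were 3 gains from Il9r, 9 from Rhbdf1 and 2 from Mpg.

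Groups of libraries that do not overlap stay apart when 1 library is left out, so that leaving out libraries tests only the size of separated values. Ranges over leaving out each library in turn are given where this changed the sign or call of a value or moved it by over 1.5 times. For Hba-x they were -0.10 to 0.049 from R1, -0.13 to 0.068 from R2, -0.24 to 0.063 from Il9r, -0.36 to -0.0062 from Snrnp25, -0.0068 to 0.24 from Mpg and 0.15 to 0.40 from Nprl3. For Hba-a1 they were 0.15 to 0.46 from R1, 0.24 to 0.47 from R2, 0.10 to 0.41 from Il9r, 0.23 to 0.51 from Mpg and 0.079 to 0.22 from Nprl3. Hbq1b ranged from 0.30 to 0.55 from R1, 0.11 to 0.48 from R2, 0.12 to 0.39 from Il9r, -0.011 to 0.12 from Snrnp25, 0.12 to 0.37 from Mpg and -0.0089 to 0.17 from Nprl3. Hba-a2 ranged from 0.099 to 0.41 from R1, 0.14 to 0.36 from Snrnp25, 0.21 to 0.45 from Mpg and -0.076 to 0.056 from Nprl3. Hbq1a ranged from 0.062 to 0.18 from R1, 0.13 to 0.52 from R2, 0.11 to 0.36 from Rhbdf1, 0.10 to 0.52 from Mpg and -0.39 to -0.14 from Nprl3. The stretch share ranged from 0.0075 to 0.20 from R1, 0.017 to 0.18 from R2 and 0.025 to 0.19 from Snrnp25. The Hbq1b to Hbq1a ratio ranged from 0.12 to 0.46 from R1, -0.041 to 0.020 from R2, -0.41 to -0.088 from Il9r, 0.16 to 0.31 from Rhbdf1 and -0.15 to 0.056 from Mpg. The ζ to adult ratio ranged from -0.40 to -0.22 from R1, -0.72 to -0.35 from Snrnp25, -0.65 to -0.26 from Il9r, -0.21 to -0.0030 from Rhbdf1, -0.41 to -0.11 from Mpg and 0.13 to 0.26 from Nprl3. The Hba-a1 to Hba-a2 ratio ranged from 0.044 to 0.076 from R1, -0.014 to 0.049 from R2, -0.36 to -0.061 from Il9r, 0.053 to 0.34 from Snrnp25, -0.028 to 0.088 from Rhbdf1 and -0.031 to 0.098 from Mpg. The enhancer-side ratio ranged from 0.046 to 0.25 from R1, 0.029 to 0.17 from R2 and -0.092 to 0.034 from Rhbdf1, and the 3′ ratio from 0.17 to 0.47 from R1, 0.021 to 0.24 from R2, -0.089 to 0.071 from Il9r and 0.12 to 0.21 from Snrnp25. Fragment losses ranged from 0 to 1 from R1 and Snrnp25 and from 0 to 4 from Nprl3, and gains from 0 to 2 from Il9r, 1 to 2 from Snrnp25, 1 to 5 from Rhbdf1, 0 to 2 from Mpg and 12 to 20 from Nprl3. The cause of these changes was not tested. With the lowest depth, that of the WT libraries of the promoter capture, genes with few counts have the widest counting error.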

Other observations

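Interactions with the β-globin locus on chromosome 7, which codes for the partner chains of the α-like globins, were few in all libraries. From R1 there were 13 counts in WT and 15 in D3839 among 52990 and 42793 interactions on other chromosomes, and from R2 15 and 17 among 85133 and 58011. From Nprl3 there were 7 and 9, from Il9r 3 and 3, and from Snrnp25, Rhbdf1 and Mpg between 0 and 3 per genotype. At this depth no comparison between the genotypes was made.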
